A study of Homo sapiens with 6 samples.

Results

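Translation initiation factors are the proteins that bring a ribosome, the initiator methionyl-tRNA and an mRNA together at a start codon. Every gene symbol that begins with EIF followed by a digit from 1 to 6 was taken, leaving out the eIF2 kinases (EIF2AK) and the EIF2C symbols, which are Argonaute genes. This gave 52 of the 23228 genes in the count tables, and 46 of them had enough reads to be tested. The data are 6 RNA-seq libraries of polyadenylated RNA from MDA-MB-231 cells, a widely used human line of breast carcinoma that lacks hormone receptors. All cells were grown in DMEM with serum, received a lentivirus and were kept under puromycin for about a week. In 3 libraries the virus carried a scrambled short hairpin RNA (shRNA), and in the other 3 an shRNA against SCUBE3, a secreted protein with EGF-like domains. The labels do not say whether the libraries of a group came from separate cultures, how many hairpins were used or whether single clones were grown, so p-values cover no more than the library-to-library spread, which could be purely technical.

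As background, eIF2 carries the initiator tRNA in its GTP-bound form, and eIF2B recharges eIF2 with GTP. The complex eIF3 holds the small ribosomal subunit open for mRNA, and the cap-binding group of eIF4E, the scaffold eIF4G and the helicase eIF4A with its cofactors loads capped mRNA. The proteins eIF1 and eIF1A guard the choice of start codon, eIF5 and eIF5B lead to joining of the large subunit, and eIF5A acts mainly in elongation and termination. In tumour cells this machinery is best known for the growth signals that reach eIF4E through mTORC1 and the MNK kinases, and for the stress signals that reach eIF2.

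The targeted gene, SCUBE3, was read 96, 91 and 80 times in scramble and 99, 107 and 101 times in the libraries labelled knockdown. The groups overlapped, and the log2 fold change was 0.03 ± 0.14 (SE; adjusted p = 0.871 by edgeR with the Benjamini-Hochberg method), so the second group is called "labelled knockdown" and each direction is that of the labels. Reads in genes numbered 21348509 to 25520901 per library. The 7 genes known as high in MDA-MB-231 were read at 204 to 4490 CPM (counts per 1000000 reads in genes, scaled by TMM, a correction for differences in library composition). Of 7 luminal breast genes, ESR1 reached at most 0.18 CPM and PGR at most 1.05, and their summed level of 594.5 to 615 CPM in scramble and 499 to 507 in labelled knockdown was mostly KRT8 and KRT18. Of the 6 luminal genes tested 5 were lower and 1 higher, among them FOXA1 with a log2 fold change of -8.55 and GATA3 with 1.39. Markers of other cell types were not equal between the groups either. The summed level of 6 fibroblast genes was 5.05 to 6.25 CPM in scramble and 26.2 to 29.5 in labelled knockdown, with DCN at 0 reads in all 6 libraries and all 4 tested genes higher in labelled knockdown. That of 4 endothelial genes was 4.68 to 6.61 and 9.99 to 11.9 CPM, with CDH5 at most 0.0954 and both tested genes higher in labelled knockdown. That of 6 haematopoietic genes was 283 to 290 and 158 to 169 CPM, nearly all of it CD68, with 1 of 2 tested genes higher, TYROBP at 0 reads and CD3E at most 0.0405 CPM. The part of these differences in the results below was not tested.

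The initiation factors were on the whole less abundant in the labelled knockdown libraries. Their summed level was 12860 ± 35.5 CPM (SD, n = 3) in scramble and 10480 ± 74.7 in labelled knockdown, 18.5% lower, and the ranges of 12830 to 12900 and 10400 to 10550 did not overlap. EIF4A1, EIF3C and EIF3CL add next to nothing to this sum, because these counts did not measure them, as described below. Of the 46 tested members, 15 were higher and 25 lower at a threshold of 0.05 on the adjusted p of edgeR's quasi-likelihood test. The other 6 did not pass. Together these were 87.0% of the tested members, where 85.9% of all 13606 tested genes passed, 43.4% higher and 42.5% lower. A share this close to the background is no result about the members, and the libraries of the groups did not overlap for 84.8% of members against 85.8% of all genes. The direction differed more than the share did. The median log2 fold change was -0.22 for the members and 0.01 for all genes, and with a mean of at least 50 CPM it was -0.42 for 38 members and -0.06 for 5177 genes. In bulk RNA, fewer cells with a transcript and less of it per cell cannot be told apart.

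Because most genes passed the test against no change, a test against a change of 1.5-fold (edgeR's glmTreat) was read beside it. It called 16 members lower and 4 higher, 43.5% of those tested, against 45.9% of all genes, of which 21.6% were lower and 24.3% higher. Large changes were few: 5 members (10.9%) reached 1 in either direction on the log2 scale, against 31.2% of all genes. With a mean of at least 50 CPM it was 10.5% of 38 members against 19.8% of 5177 genes. At that level the 1.5-fold test called 42.1% of members, 15 lower and 1 higher. It called 39.8% of genes, 1113 lower and 947 higher. The members ran from -1.50 for EIF4B to 0.99 for EIF2B3 (log2 fold change).

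**Figure D1:**
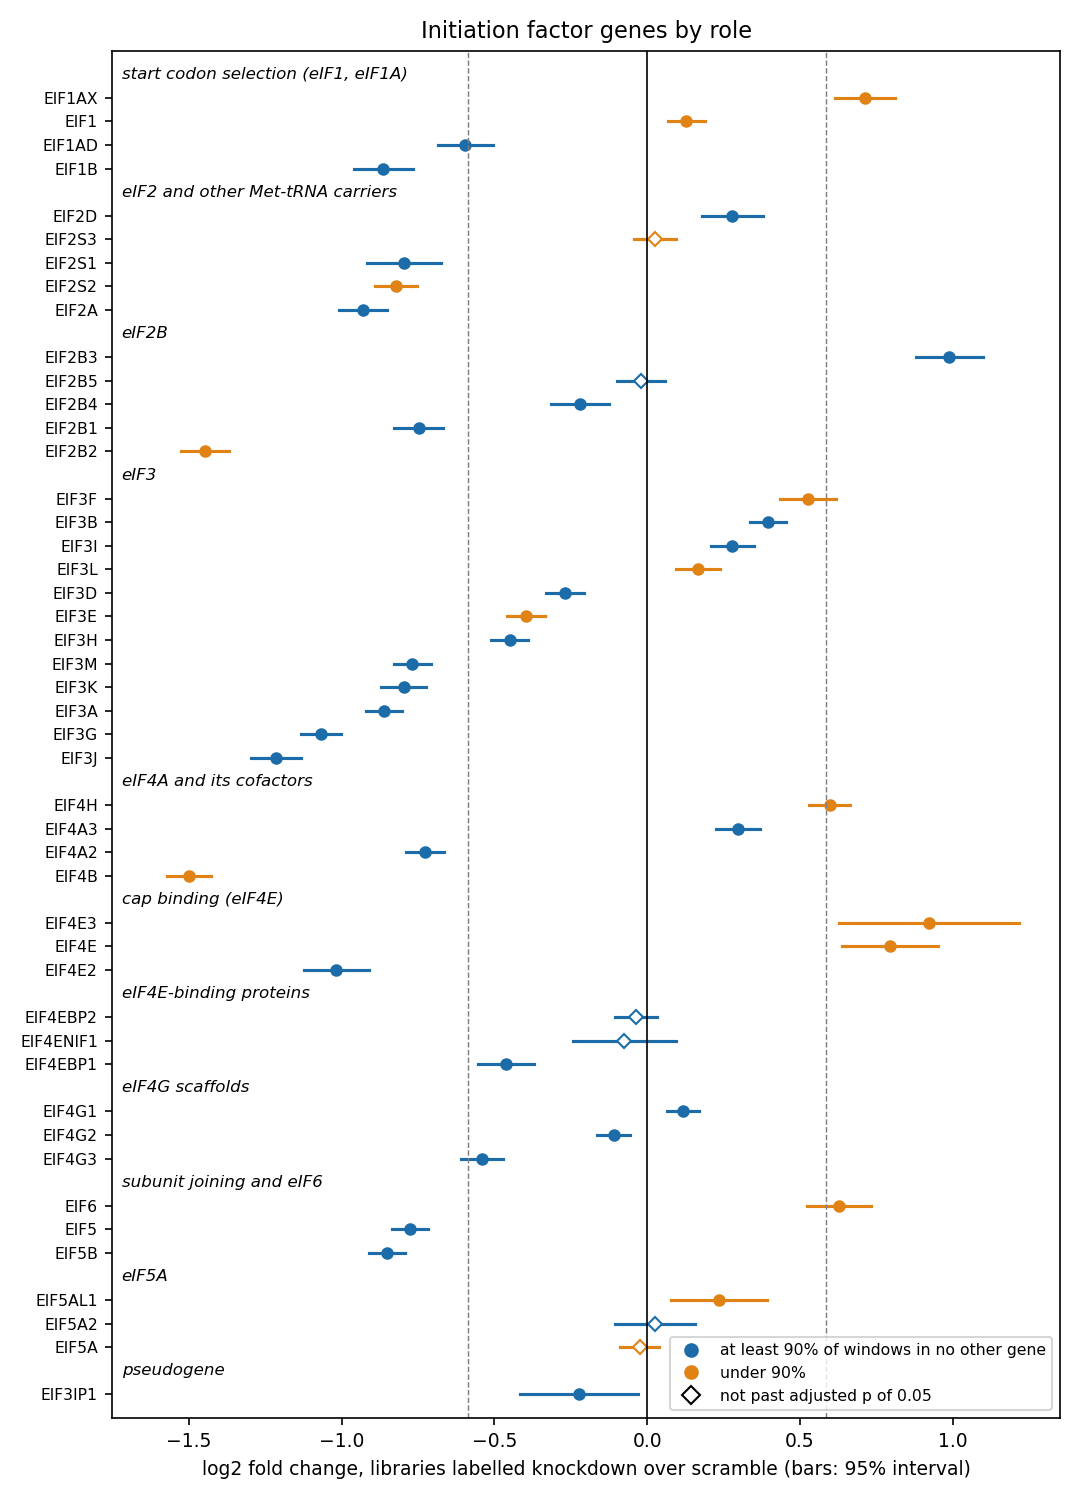
Log2 fold change (labelled knockdown minus scramble, with 95% interval) of each of the 46 tested initiation factor genes, grouped by role. The changes run from -1.50 for EIF4B to 0.99 for EIF2B3, and the eIF3 members lie on both sides of 0.

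How much of the coding sequence is found in a single gene differed among the members. Reads were 50 bases long, so each 50-base window of the coding sequence was looked up in all other GENCODE 29 genes. Untranslated parts of the transcripts, where reads can also fall, were not searched. The coding part was 651 of 11523 bases for EIF4E and 432 of 4427 for EIF1AX. A share of unshared coding windows is therefore not the share of the gene that can be counted. The annotation is on GRCh38 while the counts were made on hg19, so this describes the sequences and not the counting. EIF4A1, the main eIF4A helicase gene, had 0 reads in all 6 libraries. Every one of its windows (100%) lies in the overlapping readthrough gene SENP3-EIF4A1, which had 9, 3 and 4 reads in scramble and 4, 6 and 4 in labelled knockdown. Reads that fell in more than 1 gene made up 0.538% ± 0.00506 of all reads in scramble and 0.593% ± 0.00442 in labelled knockdown, and which genes they came from was not tested. EIF3C and EIF3CL, near-identical copies of an eIF3 core subunit, share 98.7% and 98.6% of their windows. EIF3CL had 0 reads throughout, and EIF3C had 4 reads in labelled knockdown replicate 3 and 0 in the other 5 libraries. Their first 50 coding bases, shown because a 50-base read from here has no single source, are the same.
EIF3C: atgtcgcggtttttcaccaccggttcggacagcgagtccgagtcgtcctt
EIF3CL: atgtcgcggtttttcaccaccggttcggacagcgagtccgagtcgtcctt
Thus the helicase gene EIF4A1 and the genes of the eIF3c subunit were not measured by these counts, and no level is read from their zeros. The second eIF4A helicase gene, EIF4A2, was measured and is described below.

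EIF4E1B, an oocyte form of eIF4E, also had 0 reads in every library, which allows up to 0.116 to 0.143 CPM (3 reads per library, counting error only). EIF4EBP3, an eIF4E-binding protein gene that overlaps the readthrough gene ANKHD1-EIF4EBP3, had 1, 8 and 1 reads in scramble and 1, 5 and 2 in labelled knockdown, too few to test. EIF1AY, the Y-linked copy of eIF1A, was not tested either.

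The direction of the changes went with how unique a member's coding sequence is, a split chosen after the values were seen. Of 30 tested members with at least 90% of windows found in no other gene, 20 were lower and 6 higher, and their median log2 fold change was -0.50. Of all genes in that class 43.1% were lower and 44.7% higher. Of 15 members under 90%, 9 were higher and 4 lower, and the median was 0.17, where 42.8% of all genes in the class were higher and 41.7% lower. Across all genes this split made little difference, with medians of 0.02 for 10169 genes and 0.01 for 2406. With a mean of at least 50 CPM as well, 19 of 26 unshared members (73.1%) were lower, against 48.3% of 4214 unshared genes. At that level 6 of 12 members under 90% were higher and 4 lower, and their median was 0.08, nearer to 0 than without the limit on level. Reads aligned to several places, which enter no gene, made up 34.1% ± 0.104 of reads in scramble and 29.4% ± 0.172 in labelled knockdown. Their part in the split was not tested. The pseudogene EIF3IP1, which has no coding sequence, stands outside both counts.

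**Figure D2:**
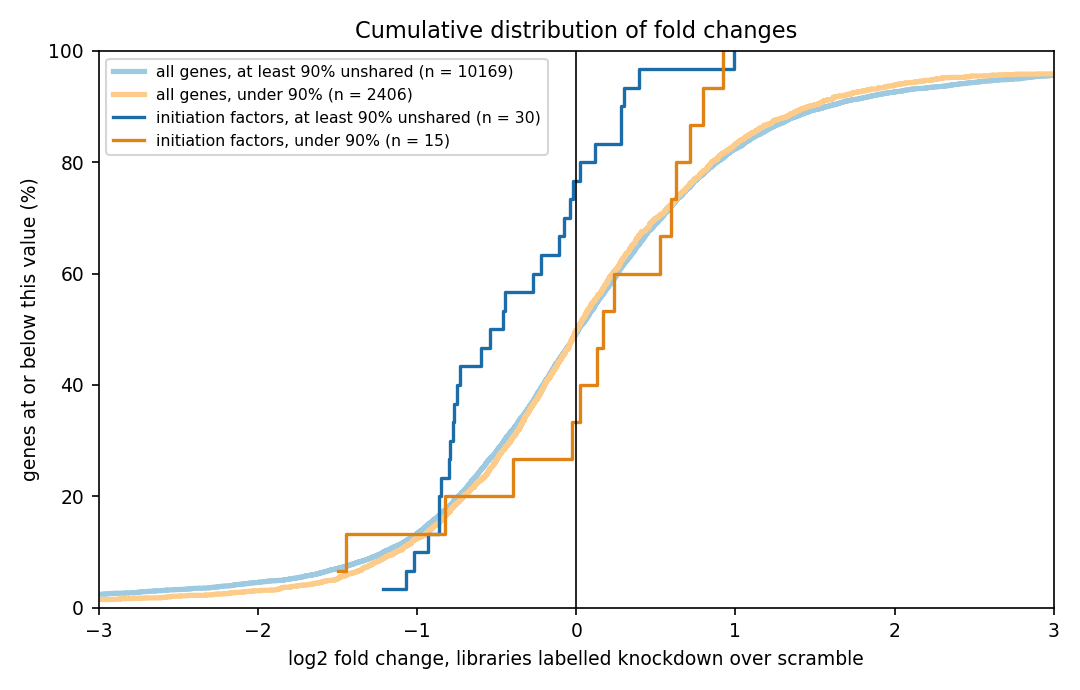
Cumulative share of genes by log2 fold change (labelled knockdown minus scramble) for the initiation factors and for all tested genes with a coding sequence. Each set is split into genes with at least 90% and under 90% of coding windows unshared. In the class of at least 90% the median is -0.50 for members and 0.02 for all genes. In the class under 90% it is 0.17 for members and 0.01 for all genes.

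Among the genes grouped under start codon selection, EIF1AX and EIF1 rose while EIF1B and EIF1AD fell. EIF1AX, which encodes eIF1A, was at 52.8, 52.1 and 48.1 CPM in the scramble libraries and 83.2, 87.2 and 80.4 in labelled knockdown. Every labelled knockdown library was above every scramble library, and the log2 fold change was 0.71 ± 0.05 (SE, edgeR). Only 21.7% of its coding windows are unshared, the rest being found in the pseudogene EIF1AXP1. EIF1B, a second gene for an eIF1 protein, went from 78.9, 76.0 and 74.5 CPM to 41.1, 42.0 and 43.0, with no overlap and a log2 fold change of -0.86 ± 0.05. EIF1 itself rose slightly, from 371 ± 8.80 to 405 ± 10.3 CPM (log2 fold change 0.13 ± 0.03). Within each library the number of EIF1B reads per EIF1 read, a ratio that no scaling touches, was 0.207 ± 0.011 in scramble and 0.104 ± 0.00479 in labelled knockdown. EIF1AD, which encodes a protein with an eIF1A-like domain, had 79.9, 80.5 and 79.9 CPM in scramble. It had 53.7, 52.5 and 52.8 CPM in labelled knockdown, all lower than scramble, a log2 fold change of -0.60 ± 0.04 that did not pass the 1.5-fold test (adjusted p = 0.354, glmTreat). The summed level of the genes in this group was 578 ± 4.55 and 583.5 ± 12.7 CPM, a difference within the spread. That sum takes in EIF1AD, which is here only for its eIF1A-like domain and which fell. No sum was taken without EIF1AD, so nothing is concluded for eIF1 and eIF1A alone.

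The eIF2 group was 31.0% lower in sum, from 1141 ± 34.9 to 787 ± 16.5 CPM, and the change was unequal among the eIF2 subunits. EIF2S1, the alpha subunit that the stress kinases phosphorylate, had 403.8, 452 and 471.9 CPM in scramble and 269.6, 248.7 and 246.6 in labelled knockdown. The groups did not overlap, and the log2 fold change was -0.80 ± 0.05 (edgeR quasi-likelihood adjusted p = 4.71e-08). EIF2S2, the beta subunit, went from 221.3, 214.3 and 221.7 CPM to 121.6, 125 and 125.1. It fell by 0.82 ± 0.03 on the log2 scale, with 61.9% of its coding windows also found in other genes, chiefly EIF2S2 pseudogenes. EIF2S3, the gamma subunit that binds GTP and the tRNA, did not pass the test at 239 and 243 CPM, and the 95% interval of its log2 fold change was -0.04 to 0.09. With scaling by library totals alone it did pass, at 0.08 (adjusted p = 0.0308). Of the proteins that can deliver initiator tRNA apart from eIF2, EIF2A had 175.8, 192.9 and 180 CPM in scramble and 98.4, 96.6 and 92.7 in labelled knockdown. This was a log2 fold change of -0.93 ± 0.04 with no overlap. EIF2D, which can place tRNA on the small subunit without GTP, rose from 57.4 ± 3.75 to 69.5 ± 2.84 CPM (0.28 ± 0.05).

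The subunits of eIF2B spanned the widest range of changes of any role, from -1.45 to 0.99 on the log2 scale. EIF2B2, the beta subunit of the regulatory part, had 202.3, 205.7 and 198 CPM in scramble and 72.3, 78.0 and 72.0 in labelled knockdown. All labelled knockdown libraries were far below scramble, 2.73-fold lower on the fitted scale (log2 fold change -1.45 ± 0.04, edgeR adjusted p = 4.83e-30). EIF2B3, the gamma subunit of the catalytic part, moved the other way, from 28.9, 31.3 and 30.1 CPM to 57.5, 62.03 and 59.5. At 1.98-fold it was the largest increase among the members (log2 fold change 0.99 ± 0.05, edgeR adjusted p = 8.89e-20). EIF2B1, the alpha subunit, had 144.1, 156.3 and 153.7 CPM in scramble and 88.8, 94.4 and 87.0 in labelled knockdown, a log2 fold change of -0.75 ± 0.04 without overlap. EIF2B4, the delta subunit, fell from 65.5 ± 1.13 to 56.2 ± 2.36 CPM (-0.22 ± 0.05). EIF2B5, the catalytic epsilon subunit, did not pass the test, at 115 and 113 CPM with a 95% interval of the log2 fold change from -0.10 to 0.06. The sum of the subunits was 30.2% lower.

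As counted, with EIF3C and EIF3CL not measured, eIF3 made up the greatest part of the summed level of the members among the roles. Its sum was 4245 ± 24.1 CPM in scramble and 3143 ± 20.9 in labelled knockdown, 26.0% lower. All 12 of its tested subunit genes passed, 8 lower and 4 higher, and their median log2 fold change was -0.42. With 85.9% of all genes past the threshold, passing is no result about eIF3. EIF3A, which encodes the large scaffold subunit, had 1145, 1081 and 1109 CPM in scramble and 624.3, 596 and 616 in labelled knockdown. It fell by 0.86 ± 0.03 on the log2 scale, and the groups were far apart. EIF3J, a loosely bound subunit that acts at the mRNA channel, showed the strongest fall of the eIF3 genes. Its level was 179.5, 176.5 and 186.6 CPM in scramble and 76.4, 82.6 and 74.7 in labelled knockdown (log2 fold change -1.22 ± 0.04, edgeR adjusted p = 4.91e-27). EIF3G, the RNA-binding subunit that sits with eIF3b and eIF3i, went from 357, 344.7 and 357.6 CPM to 165.1, 174.8 and 165.3. Every labelled knockdown library was below every scramble one (-1.07 ± 0.03).

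A pair of further core subunits of eIF3 passed the 1.5-fold test. EIF3K had 219.8, 229.5 and 235.1 CPM in scramble and 126.8, 134.5 and 132.3 in labelled knockdown (log2 fold change -0.80 ± 0.04). EIF3M had 477.9, 468.4 and 453.1 CPM in scramble and 270.2, 278.8 and 272.5 in labelled knockdown (-0.77 ± 0.03). Neither overlapped between groups. Smaller falls were seen for EIF3H (-0.45 ± 0.03) and EIF3E (-0.40 ± 0.03), both core subunits, and for EIF3D (-0.27 ± 0.03), which can itself contact the mRNA cap. The 4 eIF3 genes that rose were EIF3F (0.53 ± 0.05), EIF3B (0.39 ± 0.03), EIF3I (0.28 ± 0.03) and EIF3L (0.17 ± 0.04). EIF3B, a scaffold subunit with an RNA recognition motif, rose from 399.5 ± 11.4 to 525 ± 9.13 CPM, while its partner EIF3G fell. EIF3F rose from 54.3 ± 1.25 to 78.3 ± 0.471 CPM, with 44.7% of its coding windows unshared. The eIF3 pseudogene EIF3IP1 went from 13.6 ± 1.43 to 11.7 ± 1.53 CPM with overlapping groups. Its log2 fold change of -0.22 ± 0.09 passed (edgeR adjusted p = 0.0287), but it lost the call without scramble replicate 1 (adjusted p = 0.199) and without labelled knockdown replicate 1 (adjusted p = 0.274).

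EIF4B, the RNA-binding cofactor that stimulates the eIF4A helicase, showed the greatest fall of all tested members. It had 274, 275 and 272 CPM in the scramble libraries and 93.7, 99.8 and 96.9 in labelled knockdown. The groups were tight and far apart, 2.83-fold lower (log2 fold change -1.50 ± 0.035, edgeR adjusted p = 5.15e-32). Only 24.3% of its coding windows are unshared, since EIF4B pseudogenes and an overlapping gene hold the rest. EIF4H, a smaller cofactor related to eIF4B, went the opposite way, with 164.8, 170 and 170.8 CPM in scramble and 257.2, 256.6 and 250.8 in labelled knockdown. All 3 of the latter were higher, but the log2 fold change of 0.60 ± 0.03 did not pass the 1.5-fold test (adjusted p = 0.304, glmTreat). Of the coding windows of EIF4H, 47.6% are unshared. EIF4A2, the second eIF4A helicase gene, had 504.5, 492.8 and 478.5 CPM in scramble and 303.1, 290.2 and 298.2 in labelled knockdown (-0.73 ± 0.03, no overlap). EIF4A3, a related helicase of the exon junction complex rather than of initiation, rose from 141 ± 3.11 to 173 ± 2.70 CPM (0.30 ± 0.04).

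Cap-binding proteins changed in opposite directions. EIF4E, the cap-binding protein of the canonical complex, had 13.0, 16.5 and 13.3 CPM in scramble and 24.7, 24 and 25.2 in labelled knockdown. All labelled knockdown libraries were higher, 1.73-fold (log2 fold change 0.79 ± 0.08, edgeR adjusted p = 4.59e-12), though 17.9% of its coding windows are unshared. EIF4E2, which binds the cap without recruiting eIF4G in the usual way and takes part in repression, had 61.4, 65.9 and 66.9 CPM in scramble and 30.97, 32.1 and 32.7 in labelled knockdown. It fell by 1.02 ± 0.05 on the log2 scale, with no overlap. The number of EIF4E2 reads per EIF4E read was 4.73, 3.99 and 5.04 in the scramble libraries and 1.25, 1.34 and 1.30 in the others, a change of -1.82 in the log2 ratio. This was the greatest shift among the 7 paralogue pairs with a ratio, and the libraries of the groups were far apart. EIF4E3, a cap-binding relative, rose from 2.48, 3.29 and 2.92 CPM to 5.37, 5.79 and 5.26 (0.92 ± 0.15), and its ratio to EIF4E overlapped between groups. Only 24.6% of the coding windows of EIF4E3 are unshared, since an overlapping gene holds the rest.

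The eIF4E-binding proteins, which hold eIF4E away from eIF4G until mTORC1 phosphorylates them, changed less. EIF4EBP1 fell from 98.6 ± 6.07 to 71.5 ± 3.10 CPM (log2 fold change -0.46 ± 0.05). EIF4EBP2 did not pass the test at 191 and 186 CPM (95% interval -0.11 to 0.03), so that EIF4EBP2 reads per EIF4EBP1 read went from 1.94 ± 0.128 to 2.60 ± 0.153. EIF4ENIF1, which carries eIF4E into the nucleus and into RNA granules, was at 25.3 ± 4.14 and 24.1 ± 0.764 CPM with an interval of -0.24 to 0.09. It did not pass the test, but without scramble replicate 3 it was called lower (log2 fold change -0.19, edgeR adjusted p = 0.0162).

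The eIF4G scaffolds held their summed level within 2.58% while its make-up moved. EIF4G1, the main scaffold, rose from 1225 ± 6.31 to 1329 ± 8.45 CPM (log2 fold change 0.12 ± 0.03). EIF4G2, a relative that cannot bind eIF4E, fell from 1363 ± 30.3 to 1263 ± 10.5 CPM (-0.11 ± 0.03). EIF4G3, a second full-length scaffold, fell from 246 ± 4.38 to 169 ± 5.01 CPM (-0.54 ± 0.03). Reads of EIF4G2 per EIF4G1 read were 1.11 ± 0.0198 and 0.951 ± 0.00526, and those of EIF4G3 per EIF4G1 read were 0.201 ± 0.00326 and 0.127 ± 0.00304. Neither ratio overlapped between groups.

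**Figure D3:**
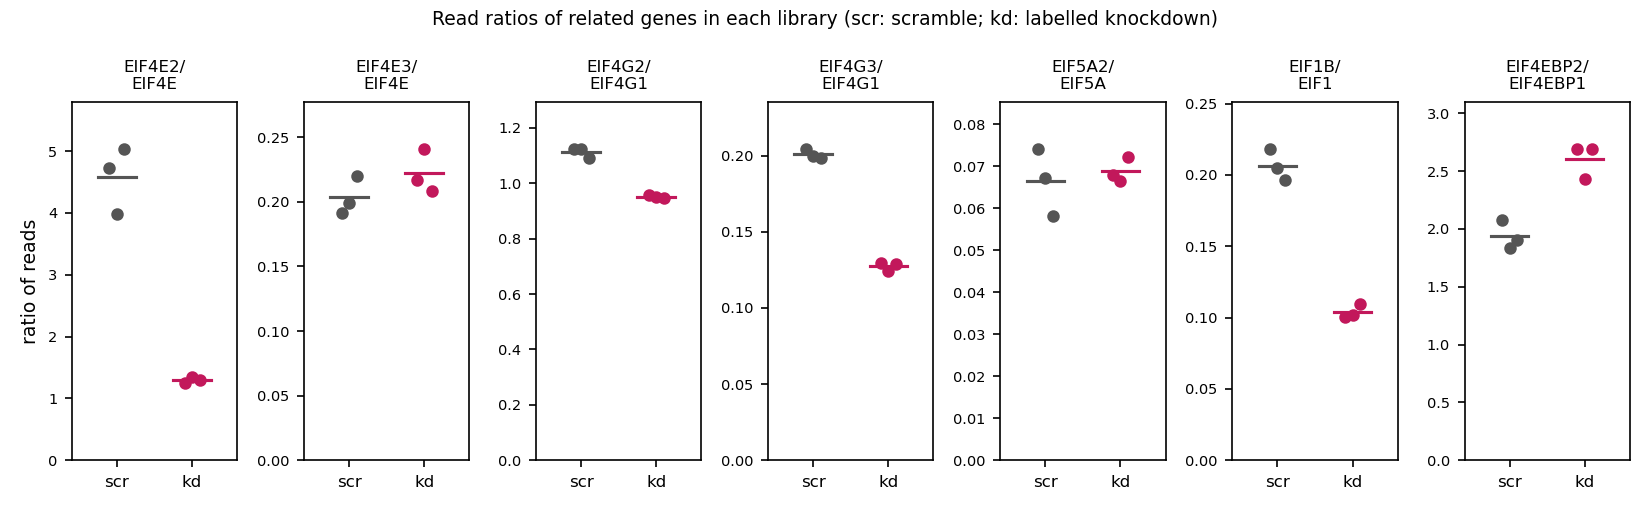
Reads of one paralogue per read of the other in each library, shown as the ratio itself on a linear axis, for the 7 pairs that gave a ratio. On the log2 scale EIF4E2 per EIF4E shifts by -1.82 and EIF1B per EIF1 by -0.99, while EIF4E3 per EIF4E and EIF5A2 per EIF5A overlap between the groups.

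Both factors of the late steps fell, and EIF6 rose. EIF5, which triggers GTP hydrolysis on eIF2, had 577.3, 551.6 and 567.2 CPM in scramble and 334.1, 326.6 and 330.6 in labelled knockdown. The log2 fold change was -0.78 ± 0.03. EIF5B, the GTPase that joins the large subunit, had 648, 624.6 and 642.9 CPM in scramble and 355.4, 356.8 and 349.6 in labelled knockdown (-0.85 ± 0.03). Neither gene's groups overlapped. EIF6, which keeps the large subunit from joining too early and works in its biogenesis, had 246.6, 288 and 275.5 CPM in scramble and 401.7, 437.1 and 412.2 in labelled knockdown. All 3 labelled knockdown libraries were higher, and the log2 fold change of 0.63 ± 0.05 did not pass the 1.5-fold test (adjusted p = 0.145, glmTreat).

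**Figure D4:**
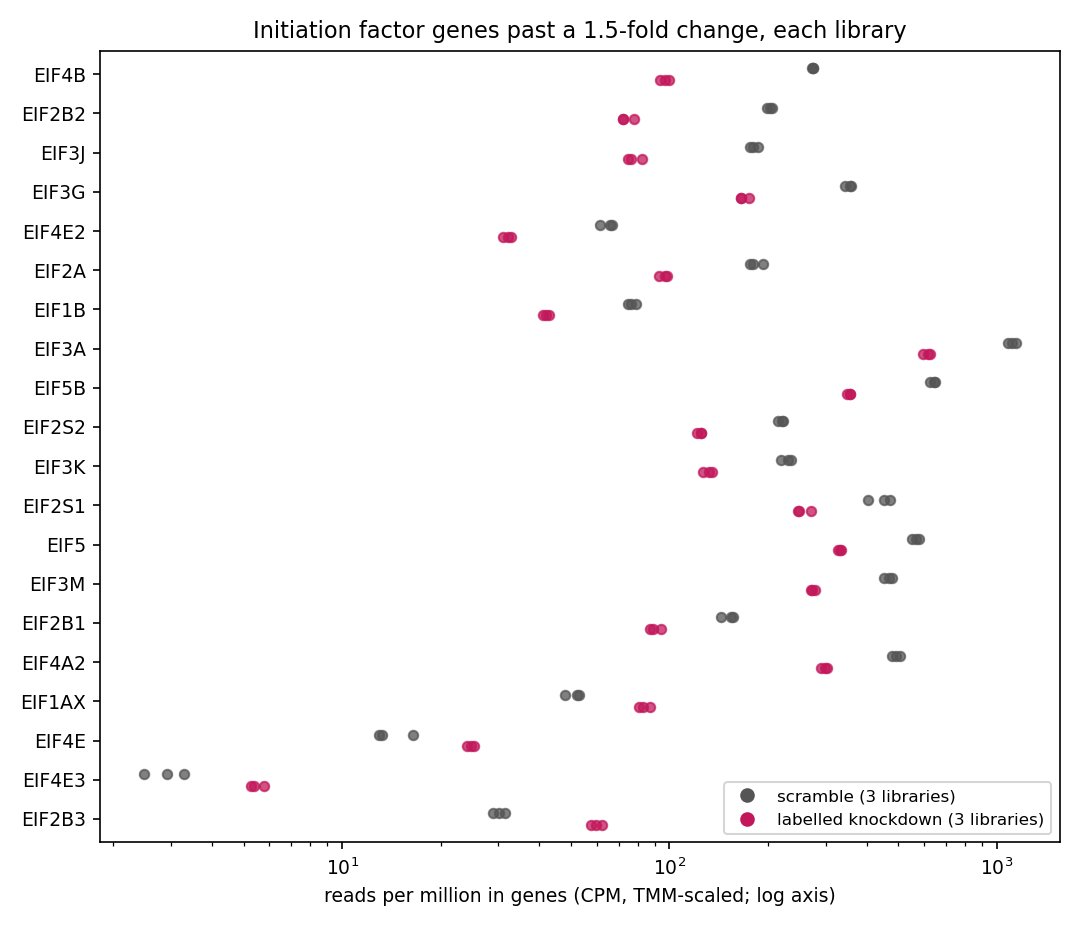
Level in each library (CPM, log axis) of the 20 members that passed the test against a 1.5-fold change, 16 lower and 4 higher in labelled knockdown. The 3 libraries of each group do not overlap those of the other for any of these genes, and the spread within a group is small beside the gap, for example 274, 275 and 272 against 93.7, 99.8 and 96.9 CPM for EIF4B.

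Of the 3 eIF5A genes, 1 passed the test, which 85.9% of all genes passed. EIF5A, which carries the modified lysine hypusine and helps ribosomes past difficult peptide bonds, was at 493 ± 12.4 and 484 ± 23.9 CPM (95% interval of the log2 fold change -0.09 to 0.04). EIF5A2, its paralogue, was at 32.7 ± 3.65 and 33.3 ± 1.16 CPM (-0.11 to 0.16). EIF5AL1, a retrocopy of EIF5A, was called higher at 15.4 ± 0.644 and 18.1 ± 1.47 CPM (log2 fold change 0.24 ± 0.08). The first 50 coding bases show how far these 3 can be told apart by a read of that length. Capitals mark each base that differs from EIF5A.
EIF5A: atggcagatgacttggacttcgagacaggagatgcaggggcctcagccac
EIF5AL1: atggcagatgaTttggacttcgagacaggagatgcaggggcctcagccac
EIF5A2: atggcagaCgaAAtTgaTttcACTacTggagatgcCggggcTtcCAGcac
EIF5AL1 differs from EIF5A at 1 base here and at 5 over the 462 coding bases, and 1.94% of its coding windows are unshared, so its count is uncertain. EIF5A2 differs at 14 of these bases. EIF5A itself has 21.5% unshared windows, partly because it overlaps GPS2 in the annotation.

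Many mRNAs of the translation machinery begin with a C followed by a run of C and T, the 5′-terminal oligopyrimidine start through which mTORC1 acts on translation. The RefSeq promoter table (GRCh38.p14, 250 bases before to 50 after the annotated start, a single window kept per gene symbol) held 43 of the 52 members. Where a symbol had several windows, the one with the lowest chromosome coordinate was kept on either strand, which need not be the main start. Of the members without a window, EIF2S2, EIF3A, EIF3G, EIF3E, EIF3H, EIF4EBP1 and EIF3IP1 were called lower, EIF3L higher, and EIF3CL was not tested. None of them enters the counts by start. A start at C followed by at least 4 bases that are each C or T, read on the gene's own strand at the annotated start, was found for 9 of the 43 (20.9%), against 4.01% of 27305 windows. Of the 38 tested members with a window 23.7% had it, against 5.29% of the 9365 tested genes with a window. Of these 9 members 6 were lower, 2 higher and 1 did not pass, and their median was -0.73 (log2 fold change). The 29 tested members that have a window without this start had a median of -0.02. The start did not go with such a shift in general: of the 495 tested genes that have it 48.1% were lower and 41.0% higher, and their median was -0.07, against -0.01 for the 8870 without. The longer form, C followed by at least 6, gave a median of -0.27 for 7 members. The windows of 20 bases before and 10 after the start are shown for the 9 members with this start. Of the 16 members that passed the 1.5-fold test as lower, 13 had a window, and 5 of these are among the 9. Capitals mark the pyrimidine run from the first transcribed base.
EIF4B (chr12:53006436-53006465, plus strand): cgtgattgcctcatccgggtCTTTTgcgtt
EIF2A (chr3:150546767-150546796, plus strand): aactctcacccgagcggtttCTCTTTCCgg
EIF3K (chr19:38619168-38619197, plus strand): gtcgtttccgtttccaccacCTCTTCCTgt
EIF3M (chr11:32583811-32583840, plus strand): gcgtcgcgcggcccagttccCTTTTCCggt
EIF4A2 (chr3:186783557-186783586, plus strand): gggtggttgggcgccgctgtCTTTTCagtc
EIF3D (chr22:36529157-36529186, minus strand): ccgctgcgcgcgcatgtttcCTCTTTTCCT
EIF2S3 (chrX:24054936-24054965, plus strand): cagccggggtgatttccttcCTCTTTTggc
EIF2D (chr1:206612456-206612485, minus strand): gccctggtttccagccgggcCCTTTTCgcg
EIF3F (chr11:7987317-7987346, plus strand): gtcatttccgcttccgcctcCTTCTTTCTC
The first 5 passed the 1.5-fold test as lower, EIF3D was lower by less, EIF2S3 did not pass and EIF2D and EIF3F were higher. A match of letters at an annotated start is not a measured start site.

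The word CACGTG, the E-box that MYC and other helix-loop-helix proteins bind and which reads the same on both strands, was searched in the same windows. It was present for 11 of the 43 members (25.6%), against 7.28% of all windows. Of the 38 tested members with a window 26.3% had it, against 9.61% of the 9365 tested genes with a window. Among the 10 tested members with the word 6 were higher, 3 lower and 1 did not pass. At the 1.5-fold test the balance was the other way, with 2 of the 10 called higher and 3 lower. The median of the 10 was 0.21 (log2 fold change) against -0.16 for the 28 that have a window without the word. Over all 900 tested genes with the word the median was -0.05, against -0.01 for those without, and 42.2% were higher and 46.2% lower. Of these 900 genes the 1.5-fold test called 201 higher and 188 lower. EIF4E has the word at 2 places and EIF2B3 at 1, shown because they were among the members that rose most, beside EIF4B, which has it and fell. Capitals mark the word.
EIF4E, nearer the start (chr4:98929188-98929217, minus strand): ggacatatccgtCACGTGgccagaagctgg
EIF4E, farther upstream (chr4:98929341-98929370, minus strand): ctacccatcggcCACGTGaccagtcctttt
EIF2B3 (chr1:44986757-44986786, minus strand): gacagagggacaCACGTGtcgaatgctcct
EIF4B (chr12:53006422-53006451, plus strand): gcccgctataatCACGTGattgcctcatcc
All 4 words lie upstream of the annotated start.

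Genes that act on or beside the initiation factors were taken from 7 lists, and 60 of their 61 genes were tested. Of these 31 were lower, 24 higher and 5 did not pass, and their median was -0.10 (log2 fold change). The share past the threshold was 91.7%, against 85.9% of all genes, of which 43.4% were higher and 42.5% lower, so the counts for these lists lie near the background. Among 12 eIF2 kinases, activators and phosphatase subunits 7 were lower and 4 higher. PPP1R15A, the inducible subunit that directs phosphatase to eIF2, fell from 421 ± 5.74 to 136 ± 7.89 CPM (-1.63 ± 0.035). EIF2AK2, the kinase PKR that senses double-stranded RNA, fell by 1.12 ± 0.04 on the log2 scale. EIF2AK3, the endoplasmic reticulum stress kinase PERK, rose by 0.90 ± 0.07. Of 13 genes of mTORC1 and the MNK kinases 7 were higher and 6 lower. MKNK1, a kinase that phosphorylates eIF4E, rose from 19.0 ± 0.795 to 41.4 ± 1.74 CPM (1.12 ± 0.06), and its relative MKNK2 rose by 0.75 ± 0.10. AKT1S1, an inhibitory subunit of mTORC1, fell by 0.88 ± 0.04.

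Among 16 tested poly(A)-binding and helper proteins 8 were lower, 5 higher and 3 did not pass. PDCD4, an inhibitor of the eIF4A helicase, fell from 224.5 ± 9.96 to 41.9 ± 1.52 CPM, and its log2 fold change of -2.42 ± 0.04 was the greatest in these lists. The inhibitors of poly(A)-binding protein PAIP2B (-1.37 ± 0.11) and PAIP2 (-1.11 ± 0.04) fell as well. Of 9 elongation factor genes 6 were lower and 3 higher, all past a threshold that 85.9% of all genes passed. EEF1G, a subunit of the exchange complex, fell by 0.97 ± 0.03 on the log2 scale, but all of its coding windows are shared with other genes. EEF1E1, a scaffold of the tRNA synthetase complex, rose by 0.92 ± 0.06, with 28.1% of its coding windows unshared. EEF1A2, a tissue-restricted form of the tRNA carrier, fell by 0.71 ± 0.07.

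Of 6 termination and recycling genes 3 were lower and 3 higher, where 85.9% of all genes passed, 42.5% lower and 43.4% higher. ETF1, the release factor eRF1, fell from 471 ± 3.19 to 238 ± 6.31 CPM (-0.99 ± 0.03). GSPT1, its GTPase partner eRF3a, fell by 0.81 ± 0.03, while the paralogue GSPT2 rose from 7.78 ± 1.22 to 24.2 ± 0.650 CPM (1.63 ± 0.09). Of the enzymes that make hypusine on eIF5A, DHPS rose by 0.54 ± 0.04 and DOHH did not pass. Only 8.32% of the coding windows of DHPS are unshared. The mitochondrial initiation factor MTIF2 fell by 0.96 ± 0.04, and MTIF3 rose by 0.41 ± 0.07.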

How the data were processed

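RNA of 6 libraries was read as single 50-base reads from a stranded mRNA kit, per the labels' protocols. bcl2fastq, TopHat2 2.0.8b, HTSeq and hg19 are named in the submitters' processing notes, while the sources used here do not give HTSeq's strand setting, overlap mode or annotation. The authors deposited unnormalized counts of reads for each gene symbol. Library sizes and tests leave out the 5 summary lines of each file. In scramble and labelled knockdown, 14.7% and 11.1% of reads were in no gene, 34.1% and 29.4% aligned to several places.

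Titles gave the groups. The 13606 genes that filterByExpr kept were tested, after TMM scaling, with edgeR 4.0.16 (R 4.3.3; robust quasi-likelihood F test, two-sided, group as the single term, Benjamini-Hochberg over all genes, threshold 0.05) and with glmTreat against 1.5-fold. On simulated counts for these 13606 genes with 50 genes changed per size, the share recovered was 52% for a change of 1.2-fold, 84% for 1.5-fold, 92% for 2-fold and 98% for 4-fold, and 6.86% of calls were false. The simulation changed far fewer genes than the 85.9% that passed in the data, so these rates need not hold there. The biological coefficient of variation was 3.21%. Each library's value is given for members past the threshold and changed at least 1.5-fold, and up to 3 genes with at least 5 CPM are named per list by size of change. The members and lists were chosen with earlier results of these data known. The alternatives were scaling by library totals, by upper quartiles or by DESeq2's size factors, another low-count filter or none, DESeq2 1.42.0, limma-voom (limma 3.58.1), a threshold of 0.01, a replicate block and each library left out.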

Additional observations from a re-analysis of the deposited data

Results flagged for a closer look

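Reads that fell in more than 1 gene belong to no gene's count and so to none of the comparisons. They made up 0.593% of all reads in the libraries labelled knockdown, above the 0.538% in scramble, and the ranges did not overlap. Which members these reads came from was not tested.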

How the results depend on the processing

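Over 15 alternatives, 39 to 41 members passed the threshold, 15 to 16 higher and 24 to 26 lower. The 1.5-fold test called 19 to 22 in the 12 alternatives it was run in, with 3 higher without scramble replicate 1 and 6 under library totals. The members' median log2 fold change of -0.22 was -0.17 under library totals and ran from -0.26 to -0.17 with a library left out. The median of genes with CACGTG went from -0.05 to 0.0012 under library totals, which raised the median of all genes to 0.06. EIF3IP1 also lost its call with library totals and with DESeq2, and no member's call changed direction. Of the 60 tested genes of the 7 lists, 53 to 56 passed. Replicate numbers did not pair the samples (correlations of deviations 0.017, 0.006 and 0.001 for same-numbered libraries), and with a replicate block 40 members passed, 15 higher and 25 lower, with a median of -0.22 and SCUBE3 at 0.02. Genes with few unshared windows and those at 0 reads limit what these counts can show.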
